A study of Mus musculus with 20 samples.

Results

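The mRNA of 43 lysosomal genes was followed across 20 libraries from mice, which the labels give as liver taken at week 24. The genes were taken from the deposited table by name, and cover membrane proteins, proteases, glycan, glycosaminoglycan and lipid hydrolases with their cofactors, and regulators. All 43 were found among the 55385 gene entries, and all 43 passed the filter that left 18905 genes for testing. The libraries fall into 4 groups of 5: wild type (WT) on chow, WT on a high-fat diet (HFD), and mice labelled LXRα-/- on chow or on HFD. LXRα, encoded by Nr1h3, is a nuclear receptor for oxysterols. The labels give neither the deleted part of the gene, nor the strain, the age in any other form than the week, or whether libraries come from separate mice. A second label field calls the LXRα-/- animals a knockdown. The p-values therefore measure the spread between these libraries, which may be in part technical.

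Lysosomes are acidic organelles that break down proteins, glycans, nucleic acids and lipids delivered by endocytosis, phagocytosis and autophagy. In the liver they release free cholesterol from the cholesteryl esters of lipoproteins and lipid droplets, and both hepatocytes and Kupffer cells, the resident macrophages, are rich in them. Many genes of the lysosome carry near their start the CLEAR element, an extended E-box bound by TFEB and its relatives, which are kept in the cytoplasm by mTORC1 when nutrients are plentiful.

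The windows around the RefSeq starts were read first, because the CLEAR element is the sequence that these genes are known to share. RefSeq windows of GRCm38.p6, from 250 bases before to 50 after the start, were matched by symbol for 37 of the 43 genes, 43 windows in all, since Cln3, Ctsa, Lgmn and Psap have 2 starts and Tfeb has 3. No window was matched for Ctsb, Ctsh, Galns, Asah1, Npc1 and Smpdl3a. The 7-base core TCACGTG, searched on both strands, was in 12 of the 37 (32.4%), against 4.29% of 27025 genes with a window. By window it was in 12 of 43, against 3.77% of 32851. Its palindromic form TCACGTGA, which contains the former on each strand, was in 5 (13.5%, against 1.12%), namely Cln3, Ctsa, Ctsd, Gla and Mcoln1. The bare E-box CACGTG, which lies within both, was in 13 (35.1%, against 8.09%), and the 10-base CLEAR palindrome in Cln3 alone (2.7%, against 0.37%). The consensus DR4 repeat, the known form of the LXR response element, was in none of the 37 and in 0.0148% of all genes. For Cln3, Ctsa and Lgmn only 1 of the 2 windows held an E-box. It is the one at the start 2581, 900 and 721 bases downstream of the 5′ end of the gene in the table, and the window nearer that end held none. These matches describe letters in a window, not occupied sites. Shown here are 5 windows, for Cln3 and Ctsa the downstream one, because they hold several E-boxes or because their genes went opposite ways in the libraries. Lamp1, Gla and Ctsd fell in labelled LXRα-/- on chow, Cln3 rose there, and Ctsa rose on HFD in WT. Capitals mark each match to TCACGTG on either strand, or to the longer palindromes that contain it.

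Lamp1, chr8:13158911-13159210, plus strand: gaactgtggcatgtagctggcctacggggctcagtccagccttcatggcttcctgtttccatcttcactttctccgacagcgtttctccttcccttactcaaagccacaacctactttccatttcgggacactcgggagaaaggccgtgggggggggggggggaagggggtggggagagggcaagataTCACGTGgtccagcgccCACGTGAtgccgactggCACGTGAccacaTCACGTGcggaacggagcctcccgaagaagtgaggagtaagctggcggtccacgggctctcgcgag

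Gla, chrX:134600956-134601255, minus strand: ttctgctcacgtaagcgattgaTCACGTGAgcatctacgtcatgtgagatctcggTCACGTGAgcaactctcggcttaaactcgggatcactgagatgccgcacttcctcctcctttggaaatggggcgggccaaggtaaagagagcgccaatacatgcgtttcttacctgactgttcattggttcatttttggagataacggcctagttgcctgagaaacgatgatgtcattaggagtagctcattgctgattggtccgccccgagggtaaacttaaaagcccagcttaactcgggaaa

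Ctsd, chr7:142387778-142388077, minus strand: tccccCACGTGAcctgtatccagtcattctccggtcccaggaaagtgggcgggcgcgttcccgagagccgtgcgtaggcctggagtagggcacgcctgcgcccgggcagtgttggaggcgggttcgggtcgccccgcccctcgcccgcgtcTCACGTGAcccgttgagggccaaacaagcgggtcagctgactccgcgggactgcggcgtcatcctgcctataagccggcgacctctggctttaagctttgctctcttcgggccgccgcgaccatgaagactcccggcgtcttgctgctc

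Cln3, chr7:126583187-126583486, minus strand: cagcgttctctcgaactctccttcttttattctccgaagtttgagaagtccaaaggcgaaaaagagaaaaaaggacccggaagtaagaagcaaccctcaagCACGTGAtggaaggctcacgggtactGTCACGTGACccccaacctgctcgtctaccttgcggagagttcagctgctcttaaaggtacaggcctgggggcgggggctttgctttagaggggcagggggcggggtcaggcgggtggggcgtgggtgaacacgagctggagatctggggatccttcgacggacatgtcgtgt

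Ctsa, chr2:164833523-164833822, plus strand: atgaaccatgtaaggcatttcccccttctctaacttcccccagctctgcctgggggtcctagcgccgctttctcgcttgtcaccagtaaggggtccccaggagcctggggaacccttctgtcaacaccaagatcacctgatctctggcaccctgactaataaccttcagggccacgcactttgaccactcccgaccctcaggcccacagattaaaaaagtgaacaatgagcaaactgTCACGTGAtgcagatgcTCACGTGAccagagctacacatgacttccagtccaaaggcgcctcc

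The Lamp1 window held 4 E-boxes within the last 58 bases before the start, the highest number among the 13 windows with a match. Both E-boxes of Gla had centres 224 and 191 bases before its RefSeq start. That start lies 120 bases downstream of the 5′ end of the gene in the deposited table. The RefSeq starts of Ctsd and Ctsl lie 211 and 370 bases downstream of that end, so these positions hold for the RefSeq start only. In Ctsa the E-boxes stood on either side of the RefSeq start used, at 9 bases before and 8 bases after. Falls were found both with and without the core. On chow, 8 of the 12 genes with TCACGTG were called lower in labelled LXRα-/- and 1 higher, with a median log2 fold change of -0.93. Of the 25 genes with a window but no core, 16 were called lower, with a median of -0.88. The 25 include Scarb2, Cd63 and Ctsl, whose only windows are at starts 1176, 8356 and 370 bases downstream of the gene's deposited 5′ end. For these 3 genes the sequence at that end was not searched. In WT, 5 of the 12 fell and 1 rose on HFD (median -0.50), and 14 of the 25 fell (median -0.79). Of all genes tested, 21% were called lower and 22.3% higher on chow, and 15% and 14.3% for diet in WT.

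**Figure D1:**
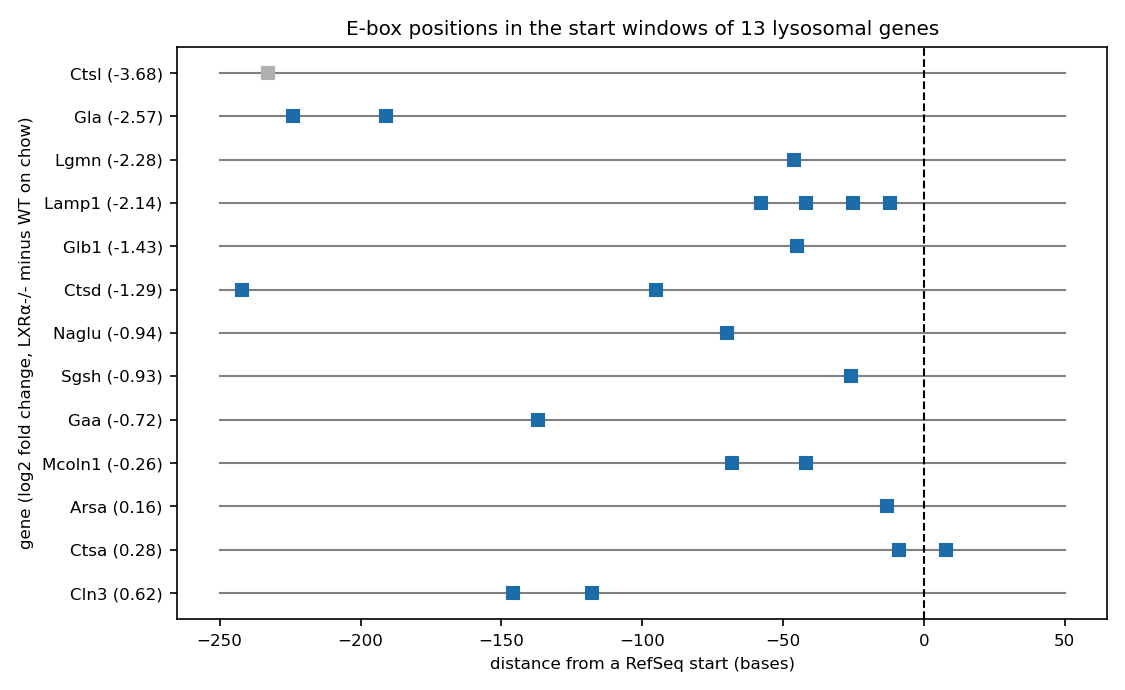
Position of each E-box (CACGTG) relative to a RefSeq start, in bases, for the 13 lysosomal genes with a match. Genes are ordered by log2 fold change, LXRα-/- minus WT on chow, given in brackets. Blue squares are within TCACGTG and the grey square, in Ctsl, is not. For Cln3, Ctsa and Lgmn, which have 2 windows, the window shown is the one with the match. For Gla, Ctsd and Ctsl the RefSeq start lies 120, 211 and 370 bases downstream of the gene's 5′ end in the deposited table. Genes with a match range from -3.68 for Ctsl to 0.62 for Cln3.

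Levels are CPM (counts scaled to library size) after TMM normalisation, libraries are given in order 1 to 5, and changes are log2 fold changes from edgeR's quasi-likelihood F test. A gene is called where its Benjamini-Hochberg adjusted p over all genes tested is under 0.05. Libraries held 75549139 to 108889938 counts. Alb and Ttr, which hepatocytes secrete, were at 21612 CPM or more and at 3342 or more in every library. The protocol text speaks of adipose RNA, yet Adipoq, Plin1 and Lep were near 0 in nearly all libraries, at most 9.35, 5.52 and 1.8 CPM. The 12 adipocyte markers summed to 95.7 to 1866 CPM in WT chow and 723 to 1318 in WT HFD, and with the LXRα-/- label to 1070.0 to 3032 on chow and 1701 to 3041 on HFD. Most of this was Car3, which mouse liver also expresses (mean 936 CPM in WT chow and 1964 with the LXRα-/- label on chow, not called). Of the 9 tested, 2 were called higher and 0 lower between genotypes on chow, where 22.3% and 21% of all genes were. The same counts were called for diet in WT, where 14.3% of all genes were higher and 15% lower. Their part in the results was not tested. The targeted gene was not lower on average under the LXRα-/- label. Nr1h3 was at 103, 92.8, 99.5, 132 and 135 CPM in WT chow, against 134, 161, 161, 23.4 and 194 with the LXRα-/- label. It was at 62.9, 59.9, 64.3, 42.7 and 51 in WT HFD, against 188, 27.2, 165, 187 and 194 with the LXRα-/- label. Means were 135 ± 65.7 against 113 ± 19.8 on chow (SD, n = 5 each, two-sided exact permutation p = 0.54) and 152 ± 70.7 against 56.2 ± 9.12 on HFD (n = 5 each, exact p = 0.0476, smallest possible 0.00794). By edgeR, Nr1h3 was not called on chow (0.26, SE 0.43, adjusted p = 0.662) or on HFD (1.44, SE 0.44, adjusted p = 0.145). Only chow library 4 and HFD library 2 of the labelled LXRα-/- libraries lay below all WT libraries of their diet. Whether the counted sequence lies outside a deleted part is not given in the sources used here, so every direction between genotypes below rests on the labels.

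The 43 genes together were most abundant in WT chow. Their summed level was 5557 ± 550 CPM in WT chow and 3288 ± 418 in WT HFD. It was 2675 ± 488 in the libraries labelled LXRα-/- on chow and 2627 ± 217 in those on HFD (SD over 5 libraries each). The lowest WT chow library, at 5147 CPM, was above the highest of the other 15, a WT HFD library at 4004. As a share of all counts the genes took 0.531%, 0.314%, 0.263% and 0.290%, in the same order. In 18 of the 43 genes (41.9%) all 5 WT chow libraries stood above all 15 others, against 8.74% of all genes tested. The 18 were Lamp1, Scarb2, Ctsb, Ctsh, Ctsl, Lgmn, Gla, Manba, Gusb, Idua, Sgsh, Galns, Npc2, Psap, Smpd1, Smpdl3a, Ppt1 and Grn. The reverse order was seen in none of the 43, against 5.55% of all genes.

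**Figure D2:**
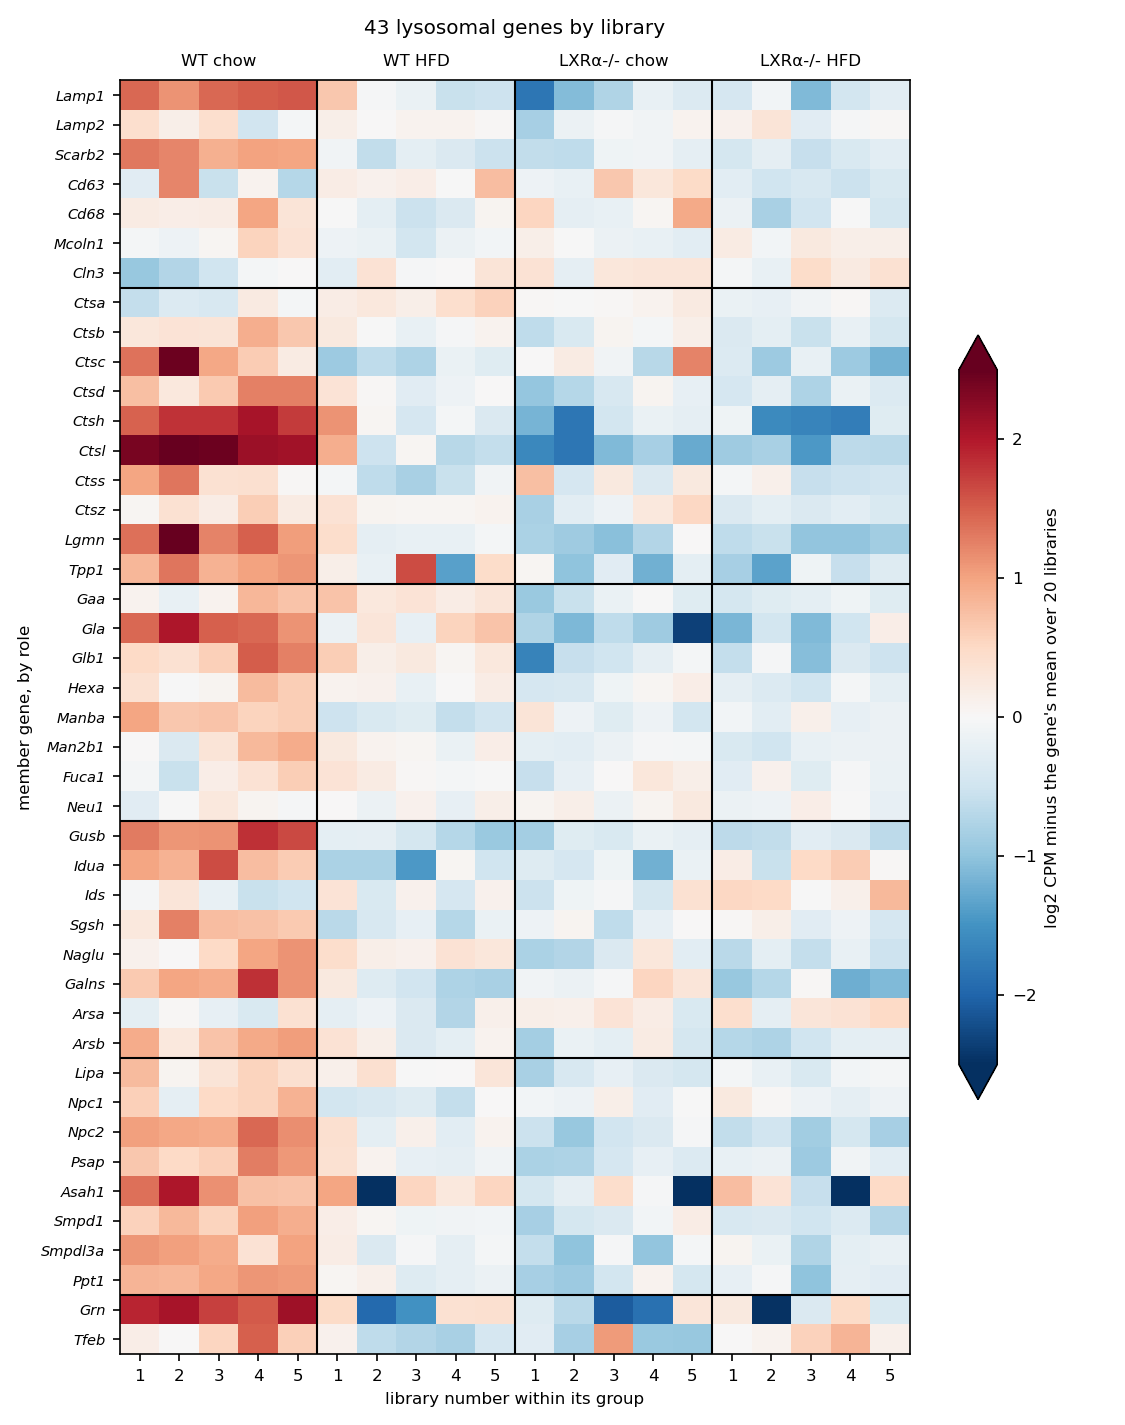
Level of each of the 43 genes (rows, by role) in each library (columns) as log2 CPM minus that gene's mean over the 20 libraries, red above and blue below. The colour scale is capped at the ends of its bar. The 5 WT chow columns are red for most genes, with Ctsl the deepest, while Cln3, Ctsa, Neu1 and Lamp2 show little red there.

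On chow, 29 of the 43 genes were lower in labelled LXRα-/- than in WT and 1, Cln3, was higher. Of all genes tested, 21% were called lower and 22.3% higher, 43.4% in all. The median log2 fold change of the 43 was -0.94, against 0.08 over all genes, and 37 of them lay below 0. The groups did not overlap in 24 genes, all lower in labelled LXRα-/- (15% of all genes did so). By role, the falls took in 7 of 8 lipid genes, 7 of 10 proteases, 6 of 8 glycan hydrolases, 6 of 8 glycosaminoglycan and sulfatide hydrolases, 2 of 7 membrane proteins and 1 of 2 regulators. In WT, 24 of the 43 were lower on HFD than on chow and 1, Ctsa, was higher, where 15% of all genes were called lower and 14.3% higher, 29.3% in all. The median was -0.84, against 0.02 over all genes. These falls took in 7 of 10 proteases, 6 lipid genes, 5 glycosaminoglycan hydrolases, 2 glycan hydrolases, 2 membrane proteins and both regulators. The comparisons share the WT chow libraries.

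Mitochondrially encoded genes moved with these results. They took 3.89% to 5.67% of the counts in WT chow and 9.77% to 19.3% in WT HFD. With the LXRα-/- label they took 18.2% to 29.6% on chow and 14.1% to 20.4% on HFD. WT chow thus shared no range with any other group. With this share as a covariate in the same edgeR model, 2 of the 43 genes were called on chow between genotypes, Ctsl at -2.35 (SE 0.50, adjusted p = 0.0321) and Gla at -3.11 (SE 0.68, adjusted p = 0.0355). For diet in WT, 8 were then called, all lower: Scarb2, Ctsc, Ctsl, Lgmn, Manba, Gusb, Idua and Sgsh. Over all genes the calls went from 8197 to 182 on chow and from 5547 to 1463 for diet in WT. The median of the 43 was then -0.62 on chow, with 32 below 0, and -0.52 for diet in WT, with 33 below 0. Some values stayed as large with a wider error and no call on chow, such as Grn at -3.27 (SE 1.29, adjusted p = 0.232), Idua at -2.20 (SE 0.66, adjusted p = 0.119) and Manba at -1.25 (SE 0.32, adjusted p = 0.0693). Others shrank and lost their call, such as Lamp1 from -2.14 to -0.84 (SE 0.52, adjusted p = 0.48). Glb1 likewise went from -1.43 to -0.21 (SE 0.55, adjusted p = 0.909) and Ctsd from -1.29 to -0.62 (SE 0.45, adjusted p = 0.569). As the share and WT chow coincide, they cannot be told apart.

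**Figure D3:**
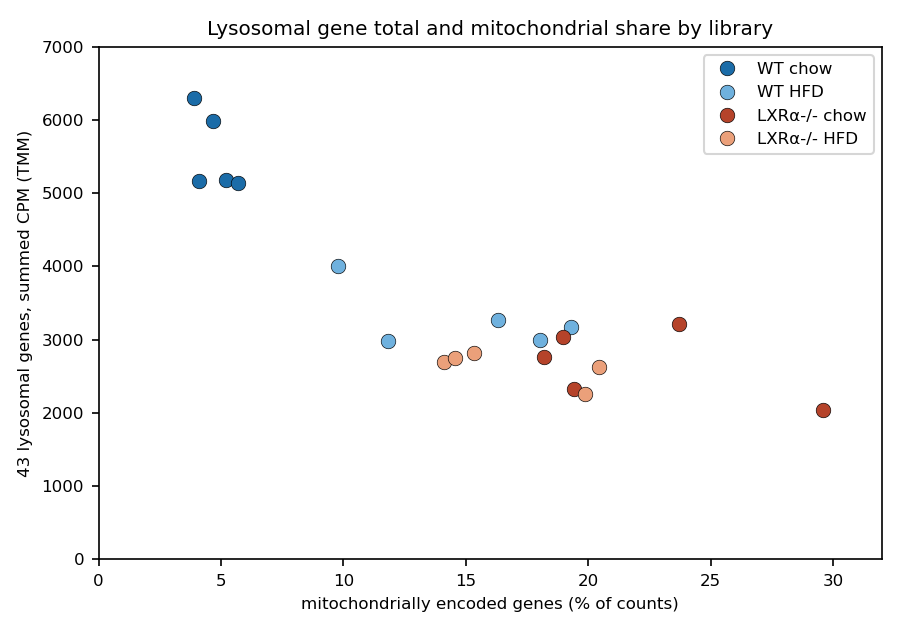
Summed CPM of the 43 genes against the percentage of counts from mitochondrially encoded genes, 1 point per library, coloured by group. WT chow lies apart at the upper left, from 5147 to 6308 CPM and 3.89% to 5.67%, and the other 15 libraries lie at 4004 CPM or less.

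Macrophage markers were also read beside these genes, since macrophages are rich in lysosomes. In bulk tissue, fewer cells of a type and less RNA per cell cannot be told apart. The 15 Kupffer cell markers, all detected in each group, summed to 428 to 735 CPM in WT chow and 300.3 to 423 in WT HFD, and with the LXRα-/- label to 211 to 409 on chow and 191 to 289 on HFD. On chow 9 of the 15 were lower in labelled LXRα-/- (21% of all genes), 4 were lower on HFD (0.201% of all genes), and 7 were lower for diet in WT (15% of all genes). Cd5l, a Kupffer cell product that LXRα is known to induce, was at 53.9 CPM or more in WT chow and at 1.15 or less in labelled LXRα-/- chow. On HFD it was at 20.4 to 32.3 CPM in WT and at 0.281 or less with the LXRα-/- label. The 15 general macrophage markers summed to 142 to 226, 106 to 151, 132 to 286 and 109 to 152 CPM in the 4 groups, in the same order. Of these markers 3 were higher and 3 lower between genotypes on chow (22.3% and 21% of all genes). For diet in WT 1 was higher and 5 were lower (14.3% and 15% of all genes). The 15 markers of recruited macrophages summed to 187 to 583 CPM in WT chow, and to 57.4 to 97.6, 65.7 to 110.4 and 51.1 to 68.2 in the other groups. Of the 14 tested, 5 were higher and 4 lower between genotypes on chow (22.3% and 21% of all genes), and 2 were higher and 2 lower for diet in WT (14.3% and 15%). The lower sums were thus not a fall of the whole list. Hepatocyte markers summed to 84514 to 159760 CPM in WT chow and 153290 to 206331 in WT HFD. With the LXRα-/- label they summed to 70857 to 157053 on chow and 96960 to 133679 on HFD. The genotypes thus overlapped in this sum on chow and not on HFD. Of the 15, 2 were higher and 6 lower between genotypes on chow (22.3% and 21% of all genes). On HFD 0 were called higher and 0 lower (0.254% and 0.201% of all genes). For diet in WT 3 were higher and 3 lower (14.3% and 15% of all genes). The part of these cell types in the lysosomal results was not tested.

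Among the 7 membrane proteins, 2 fell and 1 rose between genotypes on chow, and 4 were not called. The share called, 42.9%, was close to the 43.4% of all genes tested. Lamp1 (chromosome 8, 13159161 to 13175338) encodes a heavily glycosylated protein that lines the inner face of the lysosomal membrane. Lamp1 was at 692, 552, 685, 727 and 743 CPM in WT chow, 408, 249, 227, 172 and 178 in WT HFD, 72.4, 119, 152, 224 and 202 on chow with the LXRα-/- label and 191, 242, 118, 186 and 212 on HFD with it. All WT chow libraries stood above all others. The log2 fold change between genotypes on chow was -2.14 (SE 0.29, adjusted p = 9e-06), a 4.42-fold lower level, and that for diet in WT was -1.46 (SE 0.28, adjusted p = 0.000659). Lamp1 overlaps Grtp1 on the other strand over 3317 bases, and Grtp1 was not called on chow (-0.22). Scarb2 (chromosome 5, 92441314 to 92506833), also named LIMP-2, is the receptor that carries glucocerebrosidase to lysosomes. Scarb2 was at 149.8, 139.8, 110.0, 119.6 and 118 CPM in WT chow, 56.5, 39, 50.7, 46.7 and 41 in WT HFD, 38.9, 38.2, 55.4, 56.5 and 51 on chow with the LXRα-/- label and 43.9, 50.9, 39.9, 45.6 and 49.6 on HFD with it. It had the same separation, with -1.41 (SE 0.15, adjusted p = 9.1e-07) between genotypes on chow and -1.45 (SE 0.15, adjusted p = 3.07e-06) for diet in WT. The 15 libraries outside WT chow lay between 38.2 and 56.5 CPM.

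Lamp2, the close relative of Lamp1 that is needed for autophagosome clearance, did not follow it. Lamp2 was at 304, 254, 305, 163 and 219 CPM in WT chow, 252, 230.1, 241, 243 and 233 in WT HFD, 128, 205, 223, 215 and 242 on chow with the LXRα-/- label and 245, 286, 187, 222 and 234 on HFD with it. The groups overlapped throughout, and the log2 fold change on chow was -0.30 (SE 0.18, adjusted p = 0.203). Cd68, a lysosomal glycoprotein used as a macrophage marker, had fold changes of -0.11 (SE 0.23, adjusted p = 0.724) between genotypes on chow and -0.62 (SE 0.24, adjusted p = 0.0552) for diet in WT. Cd68 was at 10.7, 10.5, 10.6, 18.4 and 11.6 CPM in WT chow, 9.19, 7.82, 6.41, 7.21 and 9.73 in WT HFD, 13.5, 7.97, 8.16, 9.64 and 17.8 on chow with the LXRα-/- label and 8.43, 5.31, 6.66, 9.2 and 6.9 on HFD with it. WT chow library 4 was the highest of all 20, and every WT chow library lay above every WT HFD library. Mcoln1, the calcium channel TRPML1, was not called between genotypes on either diet. Mcoln1 was at 26.7, 25.4, 28.7, 40.9 and 35.5 CPM in WT chow, 25.6, 24.7, 20.1, 25 and 26.7 in WT HFD, 30.8, 27.8, 25, 24.3 and 23.3 on chow with the LXRα-/- label and 32.1, 26.4, 33.1, 30.6 and 30.9 on HFD with it. Of the remaining 2, Cln3, the membrane protein lost in juvenile Batten disease, was the only gene of the 43 higher in labelled LXRα-/- on chow, at 0.62 (SE 0.20, adjusted p = 0.0164), with means of 17.4 ± 2.63 against 11.3 ± 3.21 CPM (SD, n = 5 each) and overlapping groups. Cd63, a tetraspanin of late endosomes, was at 0.13 (SE 0.30, adjusted p = 0.759).

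Of the 10 proteases, Ctsl fell the most of all 43 genes. Ctsl (chromosome 13, 64359337 to 64370890) encodes cathepsin L, a cysteine protease of broad specificity. Ctsl was at 411, 558, 434, 348 and 340.2 CPM in WT chow, 148, 55.3, 81.8, 48.7 and 52.2 in WT HFD, 25.9, 22.5, 36.7, 44.6 and 33 on chow with the LXRα-/- label and 42.7, 44.9, 29, 50.1 and 49.3 on HFD with it. The lowest WT chow library, at 340.2 CPM, stood above WT HFD library 1, the highest of the other 15, at 148. Between genotypes on chow the log2 fold change was -3.68 (SE 0.30, adjusted p = 7.11e-08), a 12.9-fold lower level that ranked 226 from the lowest of 18905 genes. Diet in WT gave -2.44 (SE 0.29, adjusted p = 7.79e-06). Lgmn (chromosome 12, 102394084 to 102439813) encodes legumain, which cuts after asparagine and matures cathepsins. Lgmn was at 59.9, 130.3, 54.2, 64.9 and 47.6 CPM in WT chow, 31.1, 19.6, 20.2, 20.3 and 22.3 in WT HFD, 13.3, 12.3, 11.1, 13.7 and 23.1 on chow with the LXRα-/- label and 14.8, 15.5, 11.6, 11.6 and 12.5 on HFD with it. WT chow was again above all others, and WT HFD was above labelled LXRα-/- HFD in every library. The fold changes were -2.28 (SE 0.26, adjusted p = 1.68e-06) between genotypes on chow and -1.65 (SE 0.26, adjusted p = 8.62e-05) for diet in WT. Ctsh, which encodes the aminopeptidase cathepsin H, also had WT chow above all others, with a wider spread outside that group. Its genotypes overlapped on HFD. Ctsh was at 167, 211, 209.7, 251 and 200.3 CPM in WT chow, 131, 61.8, 44.9, 57.8 and 46.4 in WT HFD, 26.8, 17.1, 43.4, 53.2 and 51.6 on chow with the LXRα-/- label and 55.8, 19.8, 19.2, 18.2 and 48.4 on HFD with it. WT HFD library 1 stood well above the other libraries of its group. Its fold changes were -2.43 (SE 0.39, adjusted p = 5.41e-05) and -1.60 (SE 0.38, adjusted p = 0.00321).

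Ctsd (chromosome 7, 142375911 to 142388038) encodes cathepsin D, the main aspartic protease of lysosomes. Ctsd was at 474, 341, 447, 681 and 681 CPM in WT chow, 359, 289, 233, 258 and 283 in WT HFD, 145, 172, 213, 297 and 246 on chow with the LXRα-/- label and 211, 243, 165, 252 and 224 on HFD with it. On chow the genotypes did not overlap (-1.29, SE 0.22, adjusted p = 9.95e-05), while WT HFD library 1 reached into the range of WT chow (-0.88, SE 0.22, adjusted p = 0.00431 for diet in WT). Ctsa moved the other way. It encodes cathepsin A, a carboxypeptidase that also protects neuraminidase and β-galactosidase. Ctsa was at 130.3, 156, 149, 230.3 and 189.8 CPM in WT chow, 223, 236, 217, 263 and 293 in WT HFD, 200.4, 195, 202, 211 and 230.0 on chow with the LXRα-/- label and 176, 171, 184, 199.7 and 156 on HFD with it. On HFD every WT library exceeded every labelled LXRα-/- library, and the fold change was -0.47 (SE 0.15, adjusted p = 0.156). For diet in WT Ctsa rose by 0.53 (SE 0.15, adjusted p = 0.0115). Ctsa (chromosome 2, 164832873 to 164840019) overlaps Pltp, a phospholipid transfer protein and known LXR target, over 502 bases of the other strand. It also overlaps Neurl2 over 584 bases of that strand. Pltp had the same signs, at 1.96 for diet in WT and -2.56 between genotypes on HFD, as did Neurl2, at 1.32 and -1.01 (not called on HFD, adjusted p = 0.0684). Reads within the overlaps cannot be assigned without a known strand setting. Of the other 5 proteases, Ctsb (-0.67), Ctsc (-1.06) and Tpp1 (-1.50) fell between genotypes on chow, while Ctss was at -0.55 (SE 0.27, adjusted p = 0.101) and Ctsz at -0.31 (SE 0.19, adjusted p = 0.188). Ctss, a cathepsin of antigen-presenting cells, fell for diet in WT at -1.10 (SE 0.27, adjusted p = 0.00419).

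**Figure D4:**
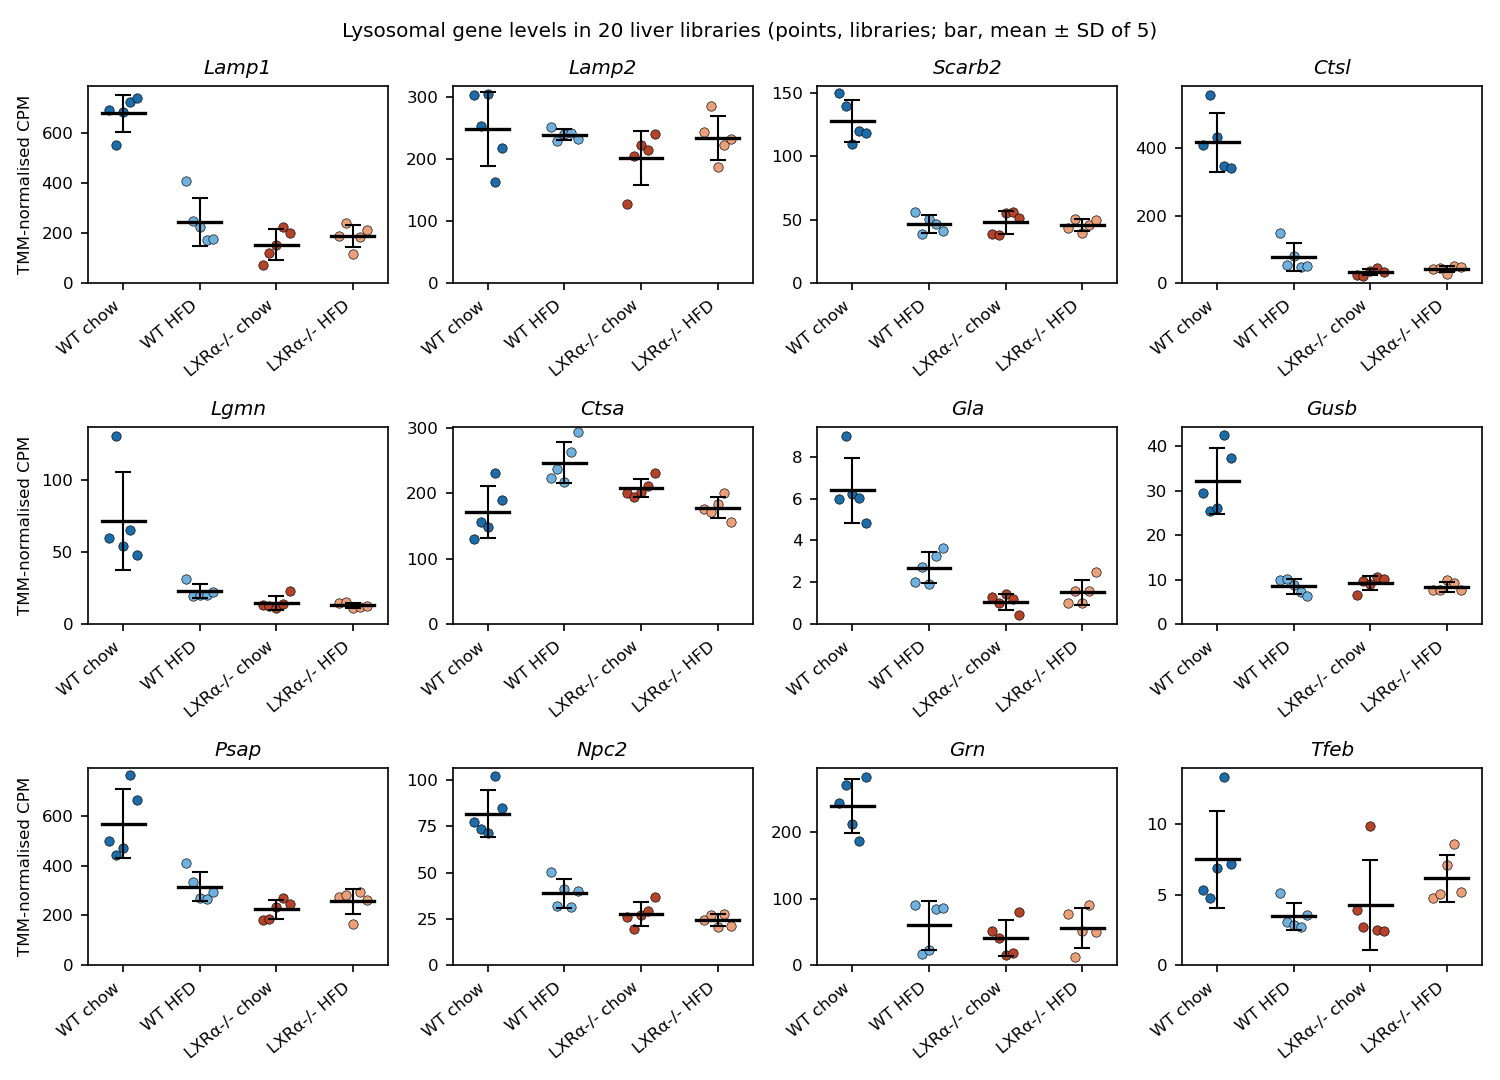
TMM-normalised CPM of 12 of the genes in the 20 libraries. Points are libraries, and bars give the mean ± SD of 5. WT chow stands above every other library for Lamp1, Scarb2, Ctsl, Lgmn, Gla, Gusb, Psap, Npc2 and Grn, but not for Lamp2, Ctsa or Tfeb.

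The 8 glycan hydrolases trim sugar chains from glycoproteins and glycolipids. Gla (chromosome X, 134588149 to 134601125), the α-galactosidase that is deficient in Fabry disease, was a low-level gene with a large fall. Gla was at 5.96, 8.99, 6.2, 6.01 and 4.83 CPM in WT chow, 2.0, 2.74, 1.91, 3.25 and 3.62 in WT HFD, 1.32, 1.02, 1.43, 1.19 and 0.438 on chow with the LXRα-/- label and 1.01, 1.61, 1.03, 1.57 and 2.48 on HFD with it. WT chow lay above all 15 others, and all but HFD library 5 of the labelled LXRα-/- libraries lay below all WT HFD libraries. Gla fell by 2.57 (SE 0.32, adjusted p = 4.66e-06) on the log2 scale between genotypes on chow and by 1.24 (SE 0.31, adjusted p = 0.00486) for diet in WT. Manba encodes the β-mannosidase that acts late in the breakdown of N-glycans. Manba was at 17.7, 14.3, 14.8, 13.2 and 13.7 CPM in WT chow, 6.27, 6.86, 7.24, 5.94 and 6.4 in WT HFD, 11.3, 8.26, 7.24, 8.26 and 6.53 on chow with the LXRα-/- label and 8.6, 7.45, 9.74, 7.75 and 8.06 on HFD with it. On chow labelled LXRα-/- was below WT in every library, at -0.82 (SE 0.15, adjusted p = 0.000271). On HFD the order turned, every labelled LXRα-/- library being above every WT library, but the difference was not called, at 0.35 (SE 0.15, adjusted p = 0.306). Glb1, the β-galactosidase of GM1 ganglioside, was lower in labelled LXRα-/- libraries on both diets without overlap. Glb1 was at 13.9, 12.6, 14.8, 28 and 23.2 CPM in WT chow, 14.9, 10.9, 11.5, 10.1 and 11.8 in WT HFD, 3.09, 6.51, 6.93, 8.36 and 9.43 on chow with the LXRα-/- label and 6.46, 9.64, 4.68, 7.64 and 6.8 on HFD with it. It passed the threshold on chow (-1.43, SE 0.28, adjusted p = 0.000366) and not on HFD (-0.75, SE 0.27, adjusted p = 0.214) or for diet in WT (-0.64, SE 0.27, adjusted p = 0.0831).

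The other 5 glycan hydrolases had smaller fold changes on chow. Gaa, the acid α-glucosidase that degrades glycogen, fell between genotypes on chow at -0.72 (SE 0.20, adjusted p = 0.00593) and stood at 0.01 (SE 0.20, adjusted p = 0.983) for diet in WT. Hexa, the α subunit of β-hexosaminidase, and Man2b1, the α-mannosidase, fell on chow at -0.53 and -0.56. Fuca1, a fucosidase, was at -0.20 and Neu1, a sialidase, at 0.07, neither of them called. Neu1 was among the steadiest of the 43, at 40.9 to 59.5 CPM over all 20 libraries. Ctsa, whose product protects the sialidase, was not called on chow either, at 0.28 (SE 0.15, adjusted p = 0.139). Without WT chow library 4, however, Ctsa was called higher by edgeR, at 0.42 (adjusted p = 0.022).

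Of the 8 enzymes of glycosaminoglycans and sulfatides, 6 fell between genotypes on chow (75%, against 21% of all genes). Gusb (chromosome 5, 129989011 to 130003049) encodes β-glucuronidase, a widely used lysosomal reporter enzyme. Gusb was at 29.5, 25.6, 26.1, 42.5 and 37.3 CPM in WT chow, 10.1, 10.2, 8.82, 7.26 and 6.29 in WT HFD, 6.6, 9.72, 9.11, 10.6 and 10.2 on chow with the LXRα-/- label and 7.6, 7.76, 9.97, 9.22 and 7.6 on HFD with it. The 15 libraries outside WT chow lay at 10.6 CPM or less, and the lowest WT chow library was at 25.6. Fold changes were -1.80 (SE 0.19, adjusted p = 7.65e-07) between genotypes on chow, -1.91 (SE 0.19, adjusted p = 1.8e-06) for diet in WT and -0.02 (SE 0.18, adjusted p = 0.982) between genotypes on HFD. Sgsh, the sulfamidase of heparan sulfate, had the same order. Sgsh was at 7.83, 15.5, 11.1, 10.9 and 10.3 CPM in WT chow, 4.12, 4.95, 5.66, 3.96 and 5.81 in WT HFD, 6.0, 6.85, 4.22, 5.67 and 6.59 on chow with the LXRα-/- label and 6.69, 7.19, 5.39, 6.0 and 4.91 on HFD with it. It fell on chow by 0.93 (SE 0.20, adjusted p = 0.000771) and for diet in WT by 1.19 (SE 0.20, adjusted p = 0.000164). Galns, a sulfatase of keratan and chondroitin sulfate, separated WT chow from the rest as well. Galns was at 11.6, 14.6, 13.9, 25.9 and 16 CPM in WT chow, 8.74, 5.86, 5.28, 4.3 and 4.16 in WT HFD, 6.88, 6.67, 7.22, 10.6 and 9.0 on chow with the LXRα-/- label and 3.78, 4.48, 7.48, 3.16 and 3.43 on HFD with it. Its fold changes were -1.02 (SE 0.27, adjusted p = 0.00481) and -1.53 (SE 0.27, adjusted p = 0.000347).

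Idua, the α-iduronidase of dermatan and heparan sulfate, had the lowest level per length of the 43, with a mean of 0.290 FPKM. Idua was at 2.35, 2.14, 3.66, 2.03 and 1.84 CPM in WT chow, 0.685, 0.684, 0.438, 1.22 and 0.839 in WT HFD, 0.937, 0.881, 1.09, 0.51 and 1.05 on chow with the LXRα-/- label and 1.34, 0.798, 1.66, 1.83 and 1.2 on HFD with it. WT chow was above all others, with -1.43 (SE 0.31, adjusted p = 0.000948) between genotypes on chow and -1.64 (SE 0.31, adjusted p = 0.000571) for diet in WT. Idua shares 5692 bases with Slc26a1 on the other strand, whose mean count was 14497 against 128 for Idua, so its values are uncertain. Arsb, the sulfatase of dermatan and chondroitin sulfate, separated the genotypes on chow but not the diets in WT. Arsb was at 30.3, 19.1, 26.2, 30.7 and 32.9 CPM in WT chow, 20.5, 17.8, 12.5, 13.5 and 17 in WT HFD, 8.88, 14.1, 13.5, 18.5 and 11.8 on chow with the LXRα-/- label and 9.68, 9.39, 11.3, 13.5 and 13.7 on HFD with it. The fold changes were -1.06 (SE 0.20, adjusted p = 0.000332) and -0.78 (SE 0.20, adjusted p = 0.00673). Naglu, a glucosaminidase of heparan sulfate, fell on chow at -0.94 (SE 0.23, adjusted p = 0.00235) and was at -0.34 for diet in WT, not called. Ids, the iduronate sulfatase, and Arsa, the sulfatase of sulfatides, were not called in any comparison, with fold changes of 0.04 and 0.16 between genotypes on chow.

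The 8 lipid genes include the pathway by which lysosomes release cholesterol. Lipa encodes the acid lipase that hydrolyses cholesteryl esters, and NPC2 and NPC1 pass the freed cholesterol to the membrane. Lipa was at 131, 78.8, 94.6, 111 and 99.7 CPM in WT chow, 82.2, 99.8, 75.3, 75.9 and 93.1 in WT HFD, 43.1, 57.5, 65.3, 58.8 and 55.5 on chow with the LXRα-/- label and 72.7, 66.8, 57.7, 71.9 and 73.1 on HFD with it. The genotypes did not overlap on chow (-0.88, SE 0.15, adjusted p = 0.000109) or on HFD (-0.32, SE 0.15, adjusted p = 0.343), and only the former was called. Diet in WT left it at -0.28 (SE 0.15, adjusted p = 0.181). Npc2 (chromosome 12, 84754562 to 84773152) had the smallest adjusted p of the 43 between genotypes on HFD. Npc2 was at 77.2, 73.5, 71.6, 102 and 84.7 CPM in WT chow, 50.2, 32, 41.2, 31.3 and 39.9 in WT HFD, 25.9, 19.5, 27.2, 29.2 and 37 on chow with the LXRα-/- label and 24.5, 27.2, 20.7, 27.9 and 21.3 on HFD with it. The genotypes did not overlap on either diet, at -1.56 (SE 0.18, adjusted p = 1.59e-06) on chow and -0.68 (SE 0.17, adjusted p = 0.0885) on HFD, the latter not called. Diet in WT gave -1.07 (SE 0.18, adjusted p = 0.000147). Npc1 encodes the membrane partner of this step. Npc1 was at 119, 67.3, 111, 115 and 143 CPM in WT chow, 57.1, 58.9, 62.8, 51.5 and 78.7 in WT HFD, 75, 71.5, 86.6, 64.2 and 77.5 on chow with the LXRα-/- label and 93, 80, 72.2, 67.4 and 72 on HFD with it. WT chow library 2 lay within the range of the other groups, and the fold changes were -0.56 (SE 0.17, adjusted p = 0.0119) between genotypes on chow and -0.84 (SE 0.17, adjusted p = 0.00106) for diet in WT.

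Of sphingolipid breakdown, Psap, Smpd1 and Smpdl3a were called lower both between genotypes on chow and for diet in WT. Psap encodes prosaposin, the precursor of the saposins that present glycolipids to their hydrolases. Psap was at 500.4, 443, 472, 762 and 662 CPM in WT chow, 409.8, 333, 271, 268 and 296 in WT HFD, 182, 184, 235, 270.1 and 248 on chow with the LXRα-/- label and 276, 281, 167, 294 and 262 on HFD with it. WT chow was above all others, with -1.34 (SE 0.20, adjusted p = 2.42e-05) between genotypes on chow and -0.85 (SE 0.20, adjusted p = 0.0028) for diet in WT. Smpd1, the acid sphingomyelinase, was separated the same way. Smpd1 was at 65.7, 76.7, 64.9, 90.1 and 82.3 CPM in WT chow, 49.4, 45.8, 40.7, 41.7 and 41.9 in WT HFD, 24.8, 32.7, 34.1, 42.2 and 49.8 on chow with the LXRα-/- label and 33.5, 34.3, 31.3, 34.6 and 26.6 on HFD with it. Its fold changes were -1.05 (SE 0.16, adjusted p = 4.22e-05) and -0.79 (SE 0.16, adjusted p = 0.0011). Smpdl3a, a related phosphodiesterase described as an LXR target in human macrophages, also fell. Smpdl3a was at 20.5, 19.4, 18.2, 12.3 and 19.1 CPM in WT chow, 10.9, 7.43, 9.36, 8.23 and 9.28 in WT HFD, 6.29, 4.76, 9.38, 4.85 and 9.27 on chow with the LXRα-/- label and 10, 8.58, 5.67, 8.08 and 8.39 on HFD with it. WT chow library 4 was low for its group yet above the other 15. The fold changes were -1.37 (SE 0.22, adjusted p = 5.54e-05) and -0.98 (SE 0.22, adjusted p = 0.00198).

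Ppt1 encodes the thioesterase that removes palmitate from proteins. Ppt1 was at 26.5, 26.2, 28.6, 31.5 and 30.7 CPM in WT chow, 15.3, 16.1, 11.8, 12.6 and 13.3 in WT HFD, 8.28, 7.79, 10.7, 15.6 and 10.8 on chow with the LXRα-/- label and 12.8, 14.3, 7.27, 12.6 and 12.1 on HFD with it. It fell between genotypes on chow, at -1.43 (SE 0.20, adjusted p = 1.12e-05), and for diet in WT, at -1.05 (SE 0.19, adjusted p = 0.000452). Asah1, the acid ceramidase, was the only lipid gene not called on chow, and its libraries swung widely. Its fold change was -1.58 (SE 0.65, adjusted p = 0.0542), with group means of 17.4 ± 7.14 CPM for WT chow against 5.83 ± 3.11 with the LXRα-/- label (SD, n = 5 each). WT HFD library 2 was at 0.552 CPM while the others of that group were at 8.55 or more. These swings were singled out after the values were seen.

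The pair of regulators varied more between libraries than most enzymes. Grn encodes progranulin, a secreted and lysosomal protein whose loss causes a lysosomal storage disease in humans. Grn was at 244, 271, 212, 188 and 283 CPM in WT chow, 90.5, 17, 22.8, 85.1 and 86.3 in WT HFD, 51.7, 40.5, 15.4, 17.8 and 80.1 on chow with the LXRα-/- label and 76.9, 11.7, 50.9, 91.2 and 49.8 on HFD with it. WT chow stood above all others, and the remaining groups each ran over a several-fold range. The fold changes were -2.54 (SE 0.55, adjusted p = 0.000915) between genotypes on chow and -1.99 (SE 0.54, adjusted p = 0.00832) for diet in WT. Tfeb, which encodes the transcription factor of the CLEAR element, was low in all groups. Tfeb was at 5.35, 4.78, 6.87, 13.4 and 7.19 CPM in WT chow, 5.1, 3.05, 2.86, 2.72 and 3.57 in WT HFD, 3.94, 2.68, 9.89, 2.49 and 2.46 on chow with the LXRα-/- label and 4.8, 5.06, 7.11, 8.59 and 5.2 on HFD with it. It was not called between genotypes on chow, at -0.81 (SE 0.37, adjusted p = 0.084), and it fell for diet in WT, at -1.12 (SE 0.37, adjusted p = 0.0282). Both statements changed when single libraries were left out. Without labelled LXRα-/- chow library 3, the highest of its group, the chow value was -1.38 (adjusted p = 0.0015). Without WT chow library 4 the diet value was -0.80 (adjusted p = 0.109), and without any of WT HFD libraries 2 to 5 it was -1.13 to -1.05 with adjusted p 0.0509 to 0.0675.

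**Figure D5:**
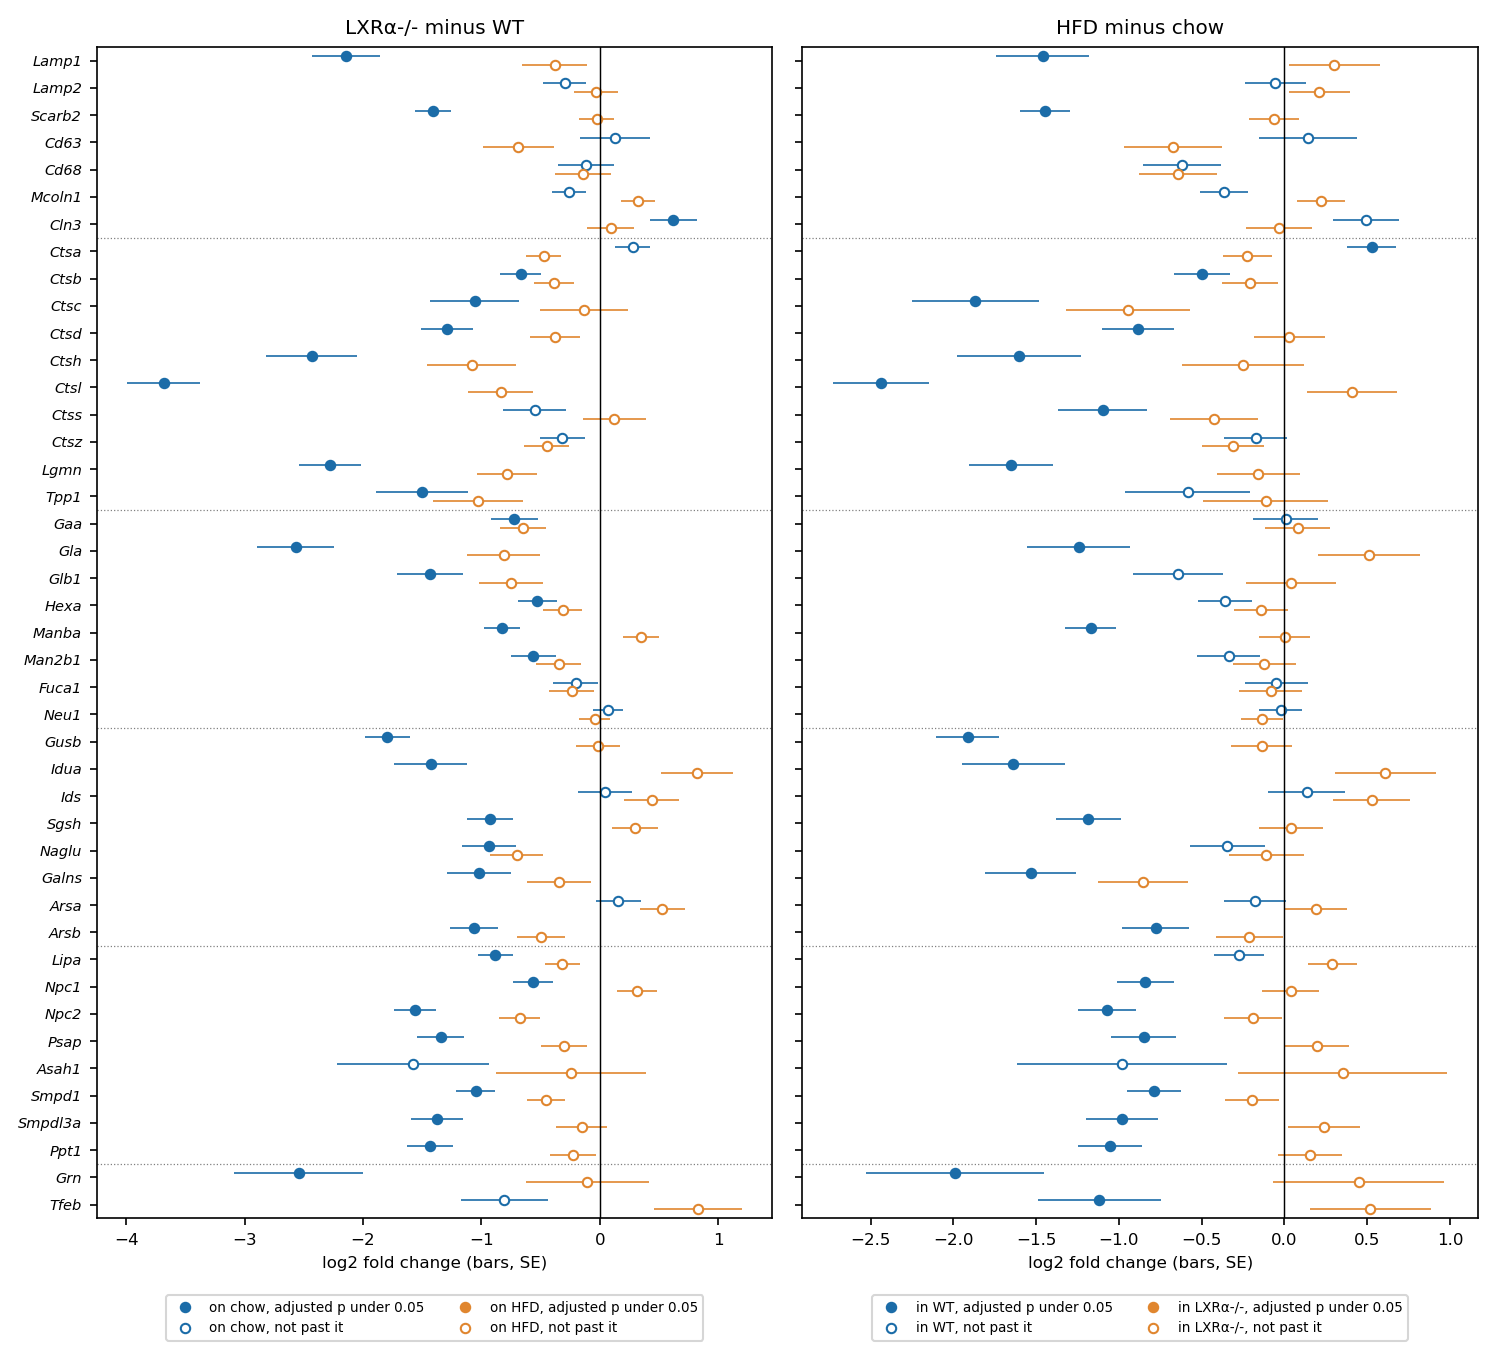
Log2 fold change of each of the 43 genes with its SE. The left panel gives LXRα-/- minus WT on chow (blue) and on HFD (orange), and the right panel HFD minus chow in WT (blue) and in LXRα-/- (orange). Filled points passed an adjusted p of 0.05 in edgeR. No orange point is filled, and blue points reach -3.68 for Ctsl on the left.

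Within HFD, none of the 43 genes was called between genotypes by edgeR, where 0.201% of all genes were called lower and 0.254% higher, 0.455% in all. At an unadjusted p under 0.05, 16 genes were lower and 5 higher in labelled LXRα-/-, against 6.41% and 7.81% of all genes. The median log2 fold change was -0.30, against 0.03 over all genes, and 33 of the 43 lay below 0 (76.7%, against 47.8% of all genes). In 11 genes every WT library exceeded every labelled LXRα-/- library (3.06% of all genes), and Manba had the reverse order (4.47% of all genes). Scaling by library totals without TMM moved the median of all genes to 0.23 and that of the 43 to -0.09. DESeq2 called 2 of the 43 on HFD, Npc2 at -0.69 (adjusted p = 0.0143) and Ctsa at -0.49 (adjusted p = 0.0478). A fit of only the HFD libraries called 4, all lower, namely Lgmn, Naglu, Gaa and Ctsz (adjusted p 0.0299 to 0.0499). The genotype differences on chow and on HFD rest on separate libraries. Over the 43 genes they had a Pearson r of 0.42 and a Spearman rho of 0.40, a description over genes that share libraries (r = 0.34 over all genes), and 30 of the 43 lay below 0 on both diets.

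In labelled LXRα-/- mice, diet gave no call among the 43 genes by edgeR, with a smallest adjusted p of 0.531 and 0.0159% of all genes called. At an unadjusted p under 0.05, 4 were lower and 1 higher, against 3.26% and 3.5% of all genes, and DESeq2 called 0 as well. The median log2 fold change was -0.03. Every HFD library was below every chow library for Cd63 alone, at -0.67 (SE 0.30, adjusted p = 0.709) (0.413% of all genes did so). The summed levels of the groups overlapped, from 2041 to 3214 CPM on chow and 2261 to 2815 on HFD.

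The difference between the genotype effects of the diets was tested as an interaction, the change on HFD minus the change on chow. It was called for 19 of the 43 genes, 18 higher and 1, Ctsa, lower, where 10.2% of all genes were called higher and 9.12% lower, 19.4% in all. The median was 0.68, against -0.03 over all genes. The highest values were Ctsl at 2.85 (SE 0.40, adjusted p = 0.000114), Grn at 2.44 (SE 0.74, adjusted p = 0.0253), Idua at 2.25 (SE 0.43, adjusted p = 0.00139), Gusb at 1.78 (SE 0.26, adjusted p = 0.000169) and Lamp1 at 1.76 (SE 0.39, adjusted p = 0.00394). Ctsa was at -0.75 (SE 0.21, adjusted p = 0.0163), with Pltp at -2.58 beside it. The others called were Gla, Tfeb, Lgmn, Scarb2, Sgsh, Smpdl3a, Ppt1, Manba, Psap, Ctsd, Npc2, Npc1 and Mcoln1, from 1.75 for Gla down to 0.59 for Mcoln1. Gaa was not called, at 0.07 (SE 0.28, adjusted p = 0.889), nor were Naglu at 0.24 (SE 0.32, adjusted p = 0.661) and Glb1 at 0.68 (SE 0.39, adjusted p = 0.233). Some calls near the threshold ended when any of many libraries was left out. The call of Mcoln1 (0.59, SE 0.20, adjusted p = 0.0491) ended in 16 of the 20 fits that left out 1 library each, with values of 0.46 to 0.66 over all 20. That of Ctsd (0.91, SE 0.30, adjusted p = 0.0404) ended in 13, with values of 0.80 to 1.06, and that of Tfeb (1.64, SE 0.52, adjusted p = 0.0324) in 9, with values of 1.32 to 2.21. Grn was at 2.20 (adjusted p = 0.0526) without labelled LXRα-/- HFD library 4. With the mitochondrial share as covariate, only Manba remained called, at 1.55 (adjusted p = 0.0463), among 76 genes in all.

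The genes differed in how steady they were. The median over the 4 groups of the coefficient of variation was lowest for Man2b1 (10.5%), Neu1 (10.7%) and Ctsa (10.9%), and highest for Grn (57.8%), Asah1 (55.3%) and Ctsh (46.7%). Tpp1, the tripeptidyl peptidase, was at 52.6 CPM in WT HFD library 3 and at 6.68 in library 4, a range also singled out after the values were seen. Per length, the most abundant were Ctsz at a mean of 184 FPKM, Ctsd at 117, Psap at 110.3 and Lamp1 at 105. Gla, at 0.796 FPKM, and Lamp1 were both among the 6 genes with the largest falls between genotypes on chow, so these came from low as well as high levels.

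The rest of the lysosomal pathway was counted from lists that share no gene with the 43. Of 17 subunits of the V-ATPase, the proton pump that acidifies lysosomes, 9 were lower and 1 higher between genotypes on chow, with a median of -0.82. Of all genes, 21% were called lower and 22.3% higher. Atp6v1e1 was at -1.86 (SE 0.26, adjusted p = 1.35e-05), Atp6v1b2 at -1.12 (SE 0.16, adjusted p = 1.35e-05) and Atp6v1d at -0.99 (SE 0.14, adjusted p = 1.17e-05). Of 23 genes of sorting to lysosomes, 10 were lower and 1 higher, with a median of -0.37. Gga2, an adaptor for the mannose 6-phosphate receptors, was at -2.98 (SE 0.58, adjusted p = 0.000365). Sumf1, which activates the sulfatases, was at -0.93 (SE 0.20, adjusted p = 0.00105), and Ap3b1, of the AP-3 adaptor, at -0.65 (SE 0.15, adjusted p = 0.00201). Of 38 genes of autophagy and mTORC1, 14 were lower and 5 higher, with a median of -0.33. Rraga, a Rag GTPase that recruits mTORC1 to lysosomes, was at -1.83 (SE 0.23, adjusted p = 4.26e-06). Wipi1 and Atg13, of autophagosome formation, were at -1.30 (SE 0.23, adjusted p = 0.00014) and -0.97 (SE 0.17, adjusted p = 0.000127).

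The lysosome pathway of KEGG, as the deposited table assigns it, held 75 further tested genes, 19 of them also counted with sorting and 7 with the V-ATPase. Of the 75, 28 were lower and 9 higher between genotypes on chow (21% and 22.3% of all genes), with a median of -0.32. Clta, a clathrin light chain, was at -2.04 (SE 0.16, adjusted p = 5.32e-08). Litaf, a protein of late endosomal membranes, was at -2.38 (SE 0.21, adjusted p = 1.45e-07) and Dnase2b, an acid nuclease, at -2.97 (SE 0.42, adjusted p = 1.71e-05). For diet in WT, 6 V-ATPase, 5 sorting, 9 autophagy and 19 KEGG genes were lower, and 3, 0, 2 and 4 were higher, where 15% of all genes were lower and 14.3% higher. For the interaction, 7, 5, 8 and 17 were higher and 2, 0, 0 and 2 lower, where 10.2% of all genes were higher and 9.12% lower. Between genotypes on HFD only Acp2, a lysosomal acid phosphatase in the KEGG list, was called, at 1.65 (SE 0.19, adjusted p = 0.000361), named for being the only one. In labelled LXRα-/- mice diet gave no call among these genes.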

How the data were processed

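Poly(A) RNA was used for paired-end Illumina libraries, per the labels' protocols. For each library the deposited table holds unnormalised counts and FPKM (scaled to gene length and library size), per the file headers. Bowtie 0.12.2, HISAT2 2.0, StringTie 1.3.0 and mm8 are listed, without their order or use, in the submitters' processing notes. Gene coordinates in the table match GRCm38 (all 43 genes have the same start, and 40 the same end, in GENCODE M21) and are printed as given. Neither the counter nor its handling of strand is stated in the sources used here, so overlapping genes are uncertain.

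Counts of all 20 libraries were tested with edgeR 4.0.16 in R 4.3.3: filterByExpr (18905 genes left), TMM, 1 mean per group and the quasi-likelihood F test, with two-sided p adjusted by Benjamini-Hochberg over the whole set (calls under 0.05). Each SE comes from the F statistic. Levels are TMM-normalised CPM, and the authors' deposited FPKM served to order levels between genes and for limma 3.58.1 on log2(FPKM + 1) and log2(FPKM + 0.1). DESeq2 1.42.0 was the other count test. The procedure was tested on simulated counts. Groups and library numbers came from the sample titles. The 5 contrasts compared genotypes on chow and on HFD, diets in WT and in labelled LXRα-/-, and the genotype effects of the diets (interaction). At 75549139 to 108889938 counts per library the spread between libraries, not counting error, limits most values.

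Other settings tried were median-of-ratios factors, library totals without TMM, no filter on low counts, only the groups compared, the replicate number as a block, the mitochondrial share as a covariate, and leaving out each library. The 43 genes, the other gene lists and the rules were chosen with earlier results of these data known. Values in every library are given for the 3 genes of each role with the smallest p over the 4 groups, for those called between genotypes on HFD, for diet in labelled LXRα-/- or for the interaction, and for Lamp1, Lamp2, Ctsd, Lipa, Npc1, Cd68, Smpdl3a and Tfeb. From each list of other lysosomal genes the 3 with the smallest p over the 4 groups are named. Marker lists of neutrophils, T and NK cells, B cells, endothelium, stellate cells, cholangiocytes and adipocytes were also counted. Between genotypes on chow, 9 of 12 B cell and 5 of 14 T and NK cell markers were higher and none lower (22.3% and 21% of all genes). For diet in WT, 11 of 12 and 5 of 14 were higher and none lower (14.3% and 15% of all genes). Between genotypes on HFD none was higher, and 1 T and NK cell marker was lower (0.254% and 0.201% of all genes).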

Additional observations from a re-analysis of the deposited data

Results flagged for a closer look

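Within groups of 5, single libraries stood apart from the rest by Dixon's criterion in 15 of 172 gene and group pairs (8.72%), where chance gives about 1 in 20. WT chow held 6, WT HFD 5, labelled LXRα-/- chow 3 and labelled LXRα-/- HFD 1. In WT chow these were Cd63 in library 2 (15 CPM, the others at most 6.83), Lgmn in library 2 (130.3 CPM, the others at most 64.9), Idua in library 3 (3.66 CPM), and in library 4 Cd68 (18.4 CPM), Tfeb (13.4 CPM) and Smpdl3a (12.3 CPM, below the others). WT HFD library 1 was high for 4 genes, namely Ctsh (131 CPM), Ctsz (371 CPM), Gaa (134 CPM) and Lgmn (31.1 CPM), and library 5 was high for Cd63 (11.1 CPM). In labelled LXRα-/- chow, library 2 was low for Cln3 (12.7 CPM), library 3 high for Tfeb (9.89 CPM) and library 5 high for Lgmn (23.1 CPM). In labelled LXRα-/- HFD, library 3 was low for Psap (167 CPM).

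The genotype effect differed between diets for 19 genes by edgeR's interaction test. On the log2 scale the differences were 2.85 for Ctsl, 2.44 for Grn, 2.25 for Idua, 1.78 for Gusb, 1.76 for Lamp1, 1.75 for Gla, 1.64 for Tfeb, 1.5 for Lgmn and 1.38 for Scarb2. They were 1.23 for Sgsh, 1.22 for Smpdl3a, 1.21 for Ppt1, 1.17 for Manba, 1.04 for Psap, 0.91 for Ctsd, 0.88 for Npc2, 0.88 for Npc1, 0.59 for Mcoln1 and -0.75 for Ctsa. The share of counts from mitochondrially encoded genes was lowest in WT chow (mean 4.71%, against 15.1% in WT HFD, and 22% on chow and 16.9% on HFD with the LXRα-/- label), and 1 of the 19 calls held with it as a covariate. The share and WT chow coincide and cannot be told apart.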

How the results depend on the processing

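No gene given with values in every library and called in a comparison changed direction under any setting run. With the mitochondrial share added to the model, 2 genes were called between genotypes on chow, 8 for diet in WT and 1 for the interaction, in place of 30, 25 and 19. Between genotypes on HFD, 2 were called by DESeq2 (560 of all genes) and 4 in a fit of only those groups (348 of all genes), in place of 0 (86 of all genes). The cause was not tested. Leaving out 1 library gave 29 to 31 calls between genotypes on chow, 23 to 29 for diet in WT, 15 to 21 for the interaction, and 0 in the other comparisons. Library totals without TMM raised the median of all genes between genotypes on HFD from 0.03 to 0.23, moved the split of all calls there from 48 higher and 38 lower to 83 and 17, and moved the interaction split from 1936 and 1725 to 2301 and 1234. For diet in labelled LXRα-/- that scaling gave a median of 0.14 over all genes and 0.14 over the 43. limma on log2(FPKM + 1) gave 228 calls on HFD, 199 higher and 29 lower. With the replicate number as a block, the calls were 29, 0, 26, 0 and 18, for genotype on chow and HFD, diet in WT and labelled LXRα-/-, and the interaction. The numbers do not pair the libraries: 2 of 30 same-numbered pairs had a correlation of deviations over 0.1 (median -0.003), and 4 of 20 libraries correlated best with their own number. Idua, Gla and Ids had the lowest mean counts of the 43, so counting error weighs most in them.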
